A study of Mus musculus with 14 samples.

Results

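The genes described here are 9 lung ligands that draw neutrophils and monocytes out of the blood or hold them in place: Cxcl1, Cxcl2, Cxcl5, Cxcl15, Cxcl12, Ccl2, Ccl6, Ccl9 and Prok2. Every probe set whose platform annotation names one of these symbols alone was taken, which gave 18 probe sets of 45101 on the array and of the 34958 that carry exactly 1 gene symbol. A probe set is a group of short oligonucleotides on an Affymetrix array that together report 1 transcript. Probe sets were taken by gene name, while the genes themselves were chosen with earlier results of these data known.

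RNA of whole lung from BALB/c mice was measured on 14 arrays. The 4T1 group (4 arrays) came from mice given cells of 4T1, a mouse breast carcinoma line that the labels call metastatic, in the fourth mammary fat pad. The 67NR group (5 arrays) came from mice given cells of 67NR, a mouse breast carcinoma line that the labels call nonmetastatic, at the same site, and the normal group (5 arrays) came from mice that received PBS alone. Tumour-bearing mice were killed 6 days after inoculation or at a tumour volume of about 50 mm3, and the lung vessels were flushed with PBS beforehand. Each tumour class is represented by 1 cell line. The labels give neither the sex and age of the mice, nor the hour of collection, nor whether each array stands for its own mouse, so the p-values below measure the spread between these arrays.

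Chemokines are small secreted proteins that bind to vessel walls and matrix and guide leukocytes along a gradient through receptors with 7 membrane-spanning helices. Cxcl1, Cxcl2 and Cxcl5 act on Cxcr2, the receptor through which neutrophils leave the bone marrow and enter tissue, while Cxcl15, also called lungkine, is a neutrophil attractant of mouse airway and alveolar epithelium. Ccl2 acts on Ccr2 of inflammatory monocytes, and Ccl6 and Ccl9 are rodent ligands of Ccr1. Cxcl12 acts on Cxcr4 and Ackr3 and retains leukocytes in marrow and lung. Prok2, also called Bv8, is a prokineticin rather than a chemokine by structure; it signals through Prokr1 and Prokr2, is made by neutrophils under G-CSF, and is known to mobilise myeloid cells in tumour-bearing mice.

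The bases ahead of a few of these genes are shown because Cxcl1 and Cxcl2 are textbook targets of NF-kB, the factor that interleukin 1 switches on, whereas Prok2 and Ccl6 were the ligands with the clearest differences on the arrays. Each line gives the 150 bases that end just before the transcription start in RefSeq's annotation of GRCm38.p6. They lie at chr5:90891095-90891244 (plus strand) for Cxcl1, chr5:90903749-90903898 (plus strand) for Cxcl2, chr6:99726393-99726542 (minus strand) for Prok2 and chr11:83593088-83593237 (minus strand) for Ccl6. Capitals mark GGAATTTCC, the core of an NF-kB site, in Cxcl1 and Cxcl2. In Prok2 they mark, in order, an E-box (CACGTG), an AP-1 site (TGANTCA) and the TATA box letters TATAAA, read on the opposite strand.
Cxcl1: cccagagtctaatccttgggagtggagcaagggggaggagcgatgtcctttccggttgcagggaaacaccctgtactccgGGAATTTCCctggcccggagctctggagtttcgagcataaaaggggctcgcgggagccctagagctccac
Cxcl2: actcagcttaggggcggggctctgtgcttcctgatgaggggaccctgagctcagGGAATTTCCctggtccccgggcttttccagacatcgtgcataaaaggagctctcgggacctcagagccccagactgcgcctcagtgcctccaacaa
Prok2: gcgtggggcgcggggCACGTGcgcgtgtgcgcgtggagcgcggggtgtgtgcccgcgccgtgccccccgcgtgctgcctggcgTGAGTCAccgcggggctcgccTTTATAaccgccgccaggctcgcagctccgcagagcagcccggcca
Ccl6: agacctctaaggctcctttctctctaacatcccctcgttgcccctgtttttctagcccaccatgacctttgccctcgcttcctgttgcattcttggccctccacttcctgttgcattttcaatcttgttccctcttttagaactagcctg

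RefSeq promoter windows were at hand for 7 of the 9 genes, all but Cxcl5 and Ccl2, and motifs were searched on both strands over the 250 bases before the start. The NF-kB letters GGAATTTCC lay 70 to 62 bases before the start of Cxcl1 and 96 to 88 bases before that of Cxcl2. The same letters occur in 94 of the 32851 promoters of the table, or 0.286%. They were searched as the letters known from the Cxcl1 and Cxcl2 genes, so their match there was fixed in advance. In Prok2 the E-box lay at 135 to 130 bases before the start and the AP-1 site at 67 to 61. The TATAAA letters, on the opposite strand, lay at 46 to 41. The letters of these motifs occur in 6.02%, 6.75% and 12.4% of all promoters, in that order. The ETS core AGGAAG, held by 29.5% of promoters, stood at 73 to 68 and 47 to 42 bases before the start of Ccl6, on the opposite strand and left in lower case above, and it was also found in Cxcl2 and Prok2. The letters TATAAA were further found in Cxcl15 and Ccl9, and an AP-1 site in Ccl9. Only these exact letters were searched, so a TATA box spelled otherwise would be missed. The NF-kB letters GGACTTTCC (0.283% of promoters) and the C/EBP letters TTGCGCAA (0.164%) were searched as well and had no match in the 7 windows. A match of letters is a description and no evidence that a factor binds.

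The ligands that activate Cxcr2 showed no change that passed the test in lungs of tumour-bearing mice. Of these, Cxcl2 and Cxcl5 were dim, with 73.3% and 86.3% of probe sets brighter, so a change in them could be missed. The receptors Cxcr2 and Ccr1 were higher in 4T1 lungs. On 1 of the 3 Prok2 probe sets the intensity was 82.2 to 174 in 4T1 lungs, against 4.67 to 57.5 in 67NR and 6.64 to 75.3 in normal lungs, while on the other 2, both dim, the groups overlapped. Both Ccl6 probe sets were brighter on every 4T1 array than on any 67NR array, as were 1.39% of all probe sets. Both overlapped between 4T1 and normal lungs, and on Ccl6 1420249_s_at the 67NR arrays were the low ones. Neither gene passed the adjusted threshold in the fit.

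Intensities are the deposited linear values, without a detection call, and differences are on the log2(intensity + 16) scale, which understates the change of dim probe sets. The limma fit took in all 34958 probe sets, each with its own mean in every group, and an adjusted p under 0.05 (Benjamini-Hochberg over all of them) counted as called. In 4T1 against normal lung 0 of the 18 probe sets were called, where 0.186% of all probe sets were, and 4 had an unadjusted p under 0.05 (limma; 5.72% of all). In 67NR against normal lung 0 of 18 were called, where 0.00286% of all were, with 2 at an unadjusted p under 0.05 (6.77% of all). In 4T1 against 67NR lung 0 of 18 were called, where 0.217% of all were, with 6 at an unadjusted p under 0.05 (8.77% of all). A count of 0 among 18 probe sets cannot be told apart from background shares as low as these, and is read as no result about the ligands. Each pair of comparisons shares the arrays of 1 group.

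The groups did not overlap in 1 of 18 probe sets between 4T1 and normal lung (2.45% of all probe sets), in 0 of 18 between 67NR and normal lung (1.23%) and in 4 of 18 between 4T1 and 67NR lung (3.16%). The 1 in 4T1 against normal lung was a probe set of Prok2, higher in 4T1, as were 1.1% of all probe sets. The 4 were both probe sets of Ccl6 and 1 of Prok2, higher in 4T1 as were 1.39% of all, and 1 of Cxcl15, lower in 4T1 as were 1.77% of all. The median log2 difference over the 18 probe sets was 0.039, 0.0841 and -0.0319 in the 3 comparisons, and over all probe sets -0.00584, 0.00181 and -0.0089. The 95% interval of the difference lay within 1 log2 unit of 0 for 16, 16 and 15 of the 18 probe sets, and within 0.5 for 10, 13 and 8. The plot of differences shows these intervals, which reached a median of 0.35, 0.33 and 0.35 log2 units to either side of the difference. For dim probe sets the added 16 compresses the interval as well as the difference.

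**Figure D1:**
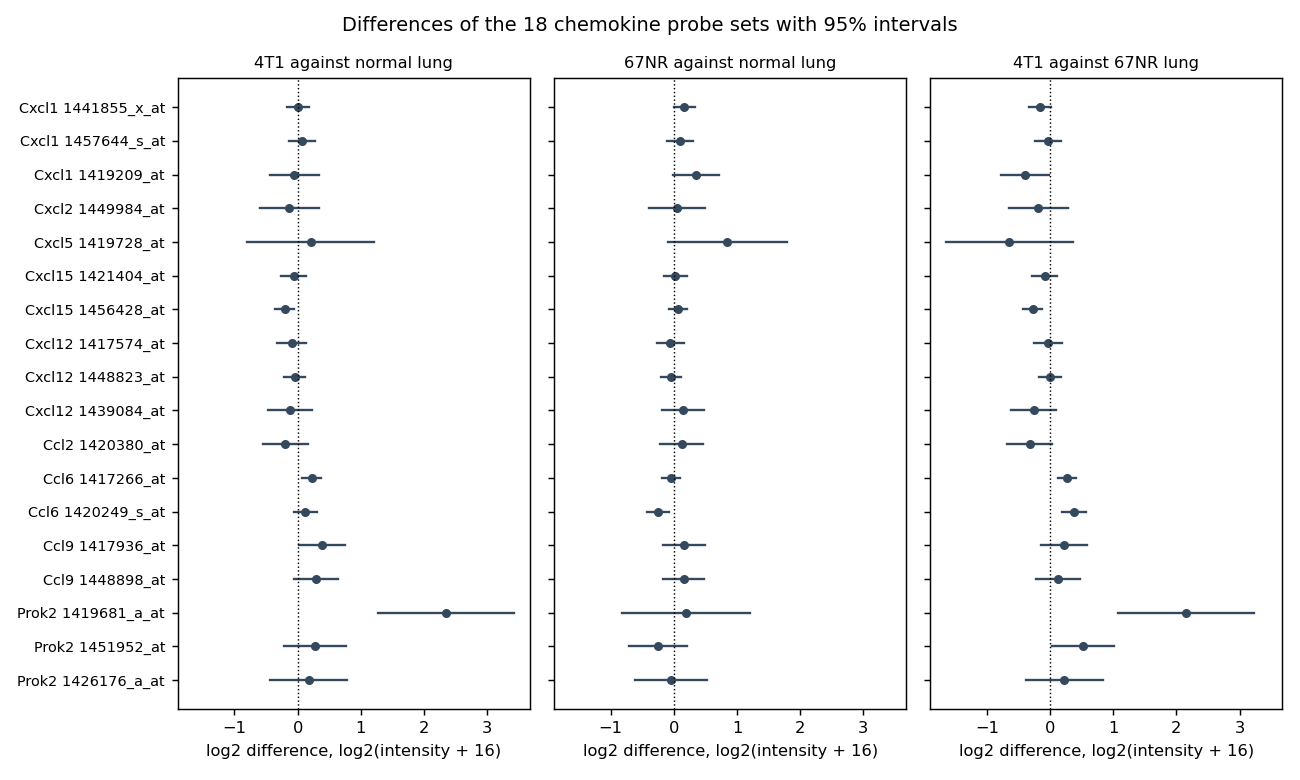
Log2 differences (x axis, log2(intensity + 16) scale) of the 18 probe sets in the 3 comparisons, with bars for the 95% interval of the limma fit. Prok2 1419681_a_at stands apart at 2.35 in 4T1 against normal and 2.15 in 4T1 against 67NR lung, and most other probe sets lie within 0.5 of 0.

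Across the whole array, medians lay between 113 and 116 and upper quartiles between 431 and 436, so the arrays were on a common scale at these levels as deposited. The brightest values were not compared in this way. Lung identity was clear from the alveolar type 2 cell markers, whose summed intensity over 11 genes was 85924.5 to 95298.4 in 4T1, 86265 to 99503.1 in 67NR and 88345.7 to 99174.2 in normal lungs. Of 22 measured neutrophil markers, limma called 10 higher in 4T1 than in normal lungs, 10 were likewise higher in 4T1 than in 67NR lungs, and 0 were called in 67NR against normal lung (limma; 2 at an unadjusted p under 0.05). With 1 probe set per gene, the share of all genes called was 0.242% for 4T1 against normal, 0.0055% for 67NR against normal and 0.28% for 4T1 against 67NR lung, and the share at an unadjusted p under 0.05 was 5.63%, 6.92% and 9.07% in the same order. These shares are the background for every gene list below. The summed intensity of the neutrophil markers was 32479.8 to 42928 in 4T1, 14261.2 to 17529.3 in 67NR and 11523.6 to 15711.3 in normal lungs, and none of the 22 was listed at 0. In whole tissue, more cells of a type and more RNA per cell cannot be told apart.

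Cxcl1, also called KC, is a fast neutrophil attractant of epithelium, endothelium and macrophages. It has 3 probe sets, of which 1441855_x_at contains oligonucleotides that can also bind other transcripts and 1457644_s_at is shared by related transcripts. The brightest, 1441855_x_at, had 462, 474, 470.4 and 475 in 4T1, 514, 561, 468, 479.6 and 627 in 67NR and 494, 449.7, 478, 507 and 413 in normal lungs. The 4T1 arrays lay within the range of the normal ones, and 3 of the 5 67NR arrays stood above every 4T1 and normal array. On the log2 scale it differed by 0.01 (SE 0.08, adjusted p = 1) in 4T1 against normal and 0.17 (SE 0.08, limma adjusted p = 0.736) in 67NR against normal lung.

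The Cxcl1 probe set without a suffix, 1419209_at, had 113.8, 76.5, 139 and 78.4 in 4T1, 115, 140.1, 107, 179 and 148 in 67NR and 111, 89.3, 87.2, 134 and 99.8 in normal lungs. Its log2 difference was -0.40 (95% interval -0.78 to -0.01) in 4T1 against 67NR and 0.35 (-0.02 to 0.71) in 67NR against normal lung, with limma adjusted p-values of 0.552 and 0.753. In 4T1 against normal lung it was -0.05 (-0.44 to 0.34). The other probe set, 1457644_s_at, ranged from 182 to 247 in 4T1, 216 to 249.6 in 67NR and 188 to 244 in normal lungs. The 3 probe sets followed one another weakly, with correlations of 0.162 to 0.479 over the 14 arrays, so they do not give 1 common account of Cxcl1.

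Cxcl2, also called MIP-2, is made chiefly by macrophages and neutrophils and shares the NF-kB letters shown above with Cxcl1. Its single probe set had 36.1, 28.4, 90.2 and 31.8 in 4T1, 51.9, 42.3, 49.6, 69.1 and 42.4 in 67NR and 53.7, 50.6, 55.0, 44.0 and 39.1 in normal lungs. Of the 4 4T1 arrays 3 were below every other array, and the remaining one, 4T1 replicate 3, was the highest of all 14. The difference was -0.13 (95% interval -0.60 to 0.34, limma adjusted p = 0.990) in 4T1 against normal and 0.05 (-0.39 to 0.49, adjusted p = 0.983) in 67NR against normal lung.

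**Figure D2:**
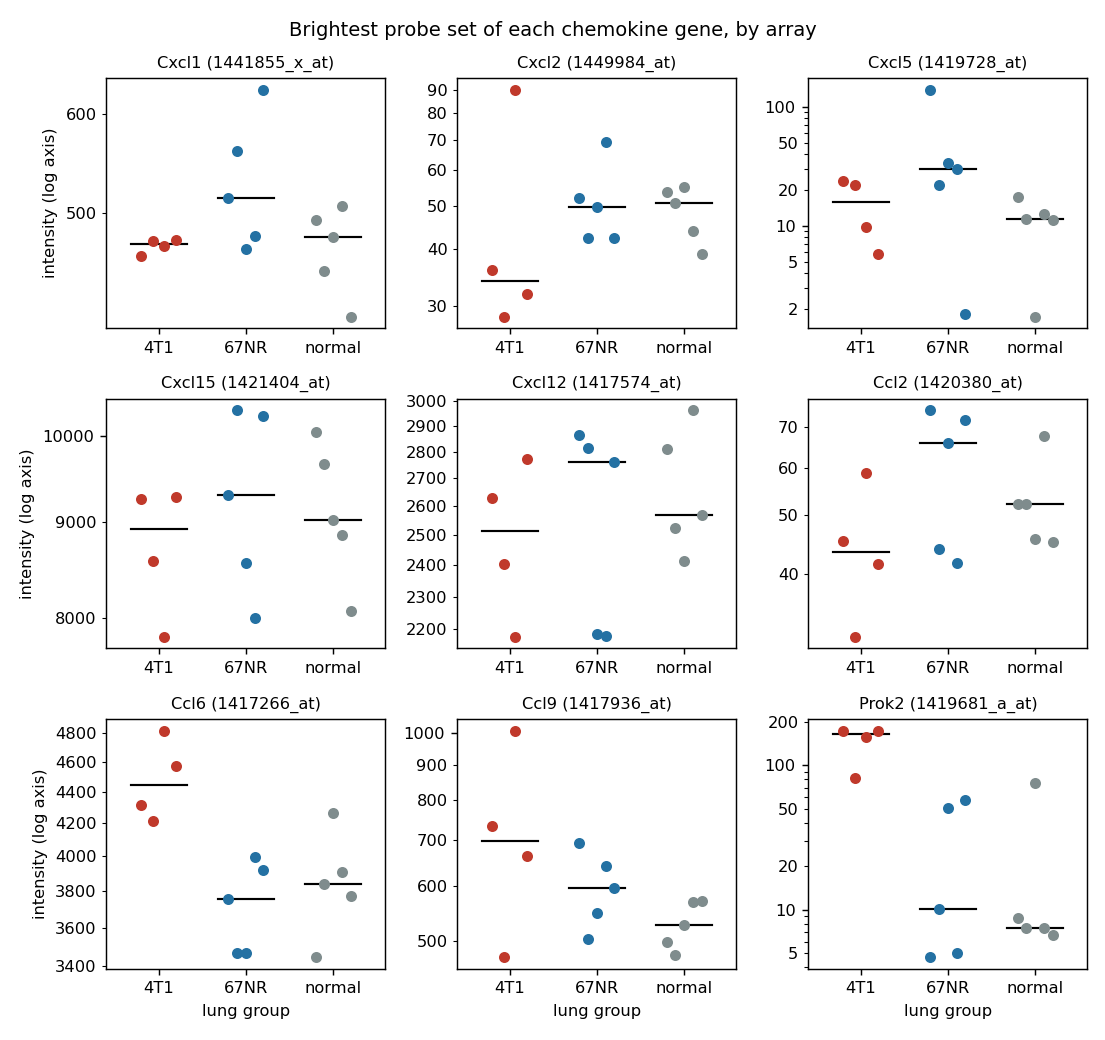
Intensity (y axis, log scale, a separate range per panel) of the brightest probe set of each of the 9 genes on the 4 4T1, 5 67NR and 5 normal arrays, with 1 point per array and a line at the group median. Ccl6 and Prok2 are higher on every 4T1 array than on any 67NR array, while Ccl6 overlaps between 4T1 and normal lungs. The other 7 genes overlap between groups.

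Cxcl5, also called LIX, is made by airway and alveolar epithelium, and in mouse lung its level is known to follow the time of day under the clock of airway secretory cells. It had 23.9, 22.1, 9.76 and 5.78 in 4T1, 139, 22.2, 33.4, 30.1 and 1.82 in 67NR and 17.4, 11.4, 1.73, 12.7 and 11.3 in normal lungs. All but 1 of the 14 values were under 34, and the exception was 67NR replicate 1. The log2 difference of Cxcl5 was 0.85 (95% interval -0.10 to 1.79, limma adjusted p = 0.762) in 67NR against normal, 0.21 (-0.80 to 1.21, adjusted p = 0.999) in 4T1 against normal and -0.64 (-1.64 to 0.36, adjusted p = 0.749) in 4T1 against 67NR lung. Without 67NR replicate 1 the difference in 67NR against normal lung was 0.42 (adjusted p = 0.893). The intervals are wide, and that of 4T1 against normal lung still includes an increase of more than 2-fold.

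The same 67NR array was also the lowest in clock output genes, a list of 8 genes (Ciart, Dbp, Hlf, Nr1d2, Nr1d1, Per3, Tef and Per2) whose RNA follows the circadian clock. Their mean log2 level, relative to the mean of all arrays, was 0.465, 0.572, 0.171 and 0.547 in 4T1, -2.12, -0.196, -1.53, -0.328 and 0.342 in 67NR and 0.451, 0.628, 0.706, 0.0273 and 0.261 in normal lungs. The 67NR arrays with the lowest clock output, replicates 1 and 3, had the highest Cxcl5, and the 67NR array with the highest clock output had the lowest. In normal lungs the array with the highest clock output, replicate 3, also had the lowest Cxcl5. The 4T1 arrays did not follow this order, since replicate 3, with the lowest clock output of the 4, had 9.76 and replicate 2, with the highest, had 22.1. Of the 8 clock genes 0 were called by limma in any comparison, yet 7 had an unadjusted p under 0.05 in 67NR against normal lung, all lower in 67NR. Apart from 67NR replicate 1 the Cxcl5 values were dim, and without a detection call their order cannot be told from background. The part of clock phase in the Cxcl5 values was not tested, and the labels give no hour of collection.

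**Figure D3:**
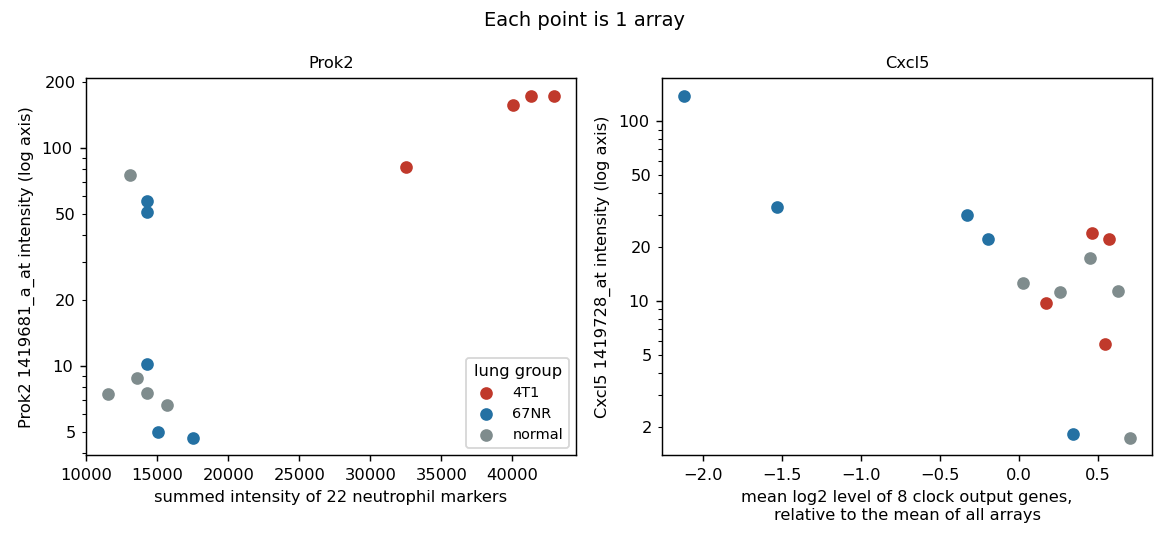
Left, Prok2 1419681_a_at intensity (log axis) against the summed intensity of 22 neutrophil markers; right, Cxcl5 1419728_at intensity (log axis) against the mean log2 level of 8 clock output genes relative to the mean of all arrays, with 1 point per array. On the left the 4 4T1 arrays lie apart at the upper right and 3 other arrays lie above 50 at low marker sums; on the right the 67NR array with the lowest clock output, at -2.12, has the highest Cxcl5.

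Cxcl15 is expressed almost only in lung among adult mouse tissues and was bright on every array. Probe set 1421404_at ranged from 7811 to 9276 in 4T1, 7999 to 10326 in 67NR and 8061 to 10053 in normal lungs, with differences between -0.09 and 0.02 in the 3 comparisons. The other, 1456428_at, had 6302, 5619, 6119 and 5734 in 4T1, 7091, 7806, 7233, 6333 and 7409.8 in 67NR and 6980.3, 6523, 6179, 7430.2 and 7074 in normal lungs. Every 4T1 array was below every 67NR array on that probe set, by a narrow margin, and 3 of the 4 4T1 arrays were below every normal array. Its log2 difference was -0.27 (SE 0.07, 95% interval -0.42 to -0.12, limma adjusted p = 0.211) in 4T1 against 67NR and -0.20 (SE 0.07, adjusted p = 0.688) in 4T1 against normal lung. The 2 probe sets correlated at 0.406 over the 14 arrays, and the brighter one gave -0.09 (-0.28 to 0.11) in 4T1 against 67NR lung.

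Cxcl12 has 3 probe sets, and none of its differences exceeded 0.26 in size. Probe set 1417574_at ranged from 2177 to 2772 in 4T1, 2180.2 to 2865 in 67NR and 2413 to 2962 in normal lungs, and 1448823_at from 1231 to 1446, 1233 to 1436 and 1229 to 1593 in the same groups. The groups covered one another on both. The log2 difference of 1417574_at was -0.09 (95% interval -0.32 to 0.14) in 4T1 against normal and -0.06 (-0.27 to 0.15) in 67NR against normal lung, with limma adjusted p-values of 0.984 and 0.945. The dimmer 1439084_at had 98.4 to 136 in 4T1, 109 to 208 in 67NR and 119 to 151 in normal lungs, and its 2 highest arrays were 67NR replicates 1 and 2.

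Ccl2, also called MCP-1, is the main ligand that releases inflammatory monocytes from marrow. It had 45.4, 31.4, 58.7 and 41.6 in 4T1, 74.7, 43.9, 66.0, 41.8 and 71.9 in 67NR and 52.3, 52.2, 45.8, 67.7 and 45.2 in normal lungs. The 2 highest arrays were 67NR arrays, yet 2 other 67NR arrays lay below every normal array. The difference was -0.20 (95% interval -0.55 to 0.16, limma adjusted p = 0.966) in 4T1 against normal, 0.12 (-0.21 to 0.46, adjusted p = 0.923) in 67NR against normal and -0.32 (-0.68 to 0.03, adjusted p = 0.613) in 4T1 against 67NR lung.

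Ccl6, also called C10, is abundant in mouse macrophages and neutrophils. Probe set 1417266_at had 4316, 4216, 4817 and 4571 in 4T1, 3754, 3467, 3469, 3996 and 3919.9 in 67NR and 3445, 3837, 4264, 3909.8 and 3773 in normal lungs. Every 4T1 array was above every 67NR array, and 1 normal array, replicate 3, reached into the 4T1 range. On the log2 scale it differed by 0.27 (SE 0.07, 95% interval 0.12 to 0.42, limma adjusted p = 0.208) in 4T1 against 67NR, 0.22 (SE 0.07, adjusted p = 0.607) in 4T1 against normal and -0.05 (SE 0.06, adjusted p = 0.932) in 67NR against normal lung.

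The other Ccl6 probe set, 1420249_s_at, had 2122, 2058, 2289.7 and 2011 in 4T1, 1491, 1456, 1599, 1672 and 1932 in 67NR and 1676, 1958, 2024, 2030.2 and 2043 in normal lungs. Here the 67NR arrays were the low ones, since 4 of 5 lay below every normal array, and 4T1 and normal lungs overlapped. Its log2 difference was 0.38 (SE 0.09, 95% interval 0.20 to 0.57, limma adjusted p = 0.139) in 4T1 against 67NR, 0.12 (SE 0.09, adjusted p = 0.943) in 4T1 against normal and -0.26 (SE 0.08, adjusted p = 0.586) in 67NR against normal lung. Without 67NR replicate 5 the first of these was 0.44, with an adjusted p of 0.0363. By its suffix, 1420249_s_at can be shared by related transcripts. Probe set 1417266_at was called in 0 of 29 alternatives in 4T1 against 67NR lung. The 2 probe sets correlated at 0.777 over the arrays and placed 4T1 above 67NR lungs, a 1.2-fold and a 1.3-fold difference, but placed the normal lungs differently between them.

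Ccl9, also called MIP-1 gamma, is made by macrophages and other myeloid cells. Probe set 1417936_at had 735, 474, 1008 and 663 in 4T1, 693, 503, 549, 641 and 596 in 67NR and 499, 478, 528, 571 and 573 in normal lungs. On 3 of the 4 4T1 arrays it was brighter than on any normal array, and the other was the lowest of all 14. Ccl9 differed by 0.39 (SE 0.17, 95% interval 0.03 to 0.74, limma adjusted p = 0.817) in 4T1 against normal, and 0.21 (adjusted p = 0.985) without 4T1 replicate 3, the highest array. It was 0.16 (SE 0.16, adjusted p = 0.892) in 67NR against normal and 0.22 (SE 0.17, adjusted p = 0.755) in 4T1 against 67NR lung. The second probe set, 1448898_at, gave 0.29, 0.16 and 0.13 in these 3 comparisons and correlated with the first at 0.766.

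Several myeloid genes were highest on that same array. Of all 14 arrays, 4T1 replicate 3 had the highest Ccl9, Ccl6, Cxcl2, Ccr2 and Il1b. The mean log2 level of 14 monocyte markers, relative to the mean of all arrays, was 0.141, -0.176, 0.297 and -0.051 in 4T1 lungs, with 4T1 replicate 3 the highest and replicate 2, the lowest in Ccl9, the lowest of the 4. Of all 14 arrays, however, 67NR replicate 1 had the highest monocyte marker level, at 0.314. The part of monocyte content in the Ccl9 values was not tested. Between groups, 0 of these 14 markers were called in any of the 3 comparisons by limma, with 3, 0 and 3 at an unadjusted p under 0.05 in 4T1 against normal, 67NR against normal and 4T1 against 67NR lung. Their summed intensity was 16223.7 to 17999.6 in 4T1, 15078.8 to 20383.8 in 67NR and 16040.1 to 18588.3 in normal lungs.

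Prok2 had the largest difference of the 9 genes in both comparisons of 4T1 lungs, on 1 of its 3 probe sets. Probe set 1419681_a_at had 174, 82.2, 157 and 174 in 4T1, 4.67, 10.2, 51.1, 5.0 and 57.5 in 67NR and 8.82, 7.46, 75.3, 7.49 and 6.64 in normal lungs. All 4 4T1 arrays were above all 10 others, but 2 67NR arrays and 1 normal array were brighter than the rest of their groups, at 51.1 or more against 10.2 or less, and 1 normal array came close to the lowest 4T1 array. The log2 difference was 2.35 (SE 0.50, 95% interval 1.27 to 3.43, limma adjusted p = 0.149) in 4T1 against normal lung. In 4T1 against 67NR lung it was 2.15 (SE 0.50, 95% interval 1.07 to 3.23, adjusted p = 0.157), and in 67NR against normal lung 0.20 (SE 0.47, adjusted p = 0.965). Most 67NR and normal values are so low that the size depends on the offset added to the intensity: with offsets of 64 and 1 it was 1.34 and 3.42 in 4T1 against normal and 1.25 and 3.12 in 4T1 against 67NR lung, so no fold is given. Without normal replicate 3, the bright normal array, the difference in 4T1 against normal lung was 2.74 with an adjusted p of 0.0214, so the call for Prok2 turned on that single array.

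The other Prok2 probe sets were dim. Values of 1451952_at were 14.8 to 27.2 in 4T1, 1.71 to 18.9 in 67NR and 2.71 to 21.6 in normal lungs, and those of 1426176_a_at were 3.72 to 33.1, 3.09 to 19.6 and 4.00 to 25.7. Their log2 differences in 4T1 against normal lung were 0.27 (95% interval -0.22 to 0.77) and 0.18 (-0.43 to 0.79), and in 4T1 against 67NR lung 0.52 (0.03 to 1.02, limma adjusted p = 0.538) and 0.22 (-0.39 to 0.83, adjusted p = 0.880). Neither followed 1419681_a_at closely, with correlations of 0.472 and 0.155 over the arrays. The bright 67NR and normal arrays on 1419681_a_at were not the arrays with the most neutrophil marker signal, as the plot of Prok2 against the summed markers shows. The part of neutrophil content in the Prok2 difference was not tested.

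Of 11 receptors and scavengers listed, 10 were measured, and Cxcr1 was not analysed here. In 4T1 against normal lung 2 of the 10 rose, Cxcr2 and Ccr1, and the same 2 rose in 4T1 against 67NR lung, beside 0.242% and 0.231% of all genes called higher. In 67NR against normal lung 0 of 10 were called by limma, with 3 at an unadjusted p under 0.05 (Prokr1, Prokr2 and Ackr4, all lower). Cxcr2 is also one of the 22 neutrophil markers, so its count is not separate from theirs.

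Cxcr2 had 871, 672, 1055 and 1099 in 4T1, 272, 139, 189, 209.6 and 155 in 67NR and 193, 119, 163, 151 and 175 in normal lungs. The lowest 4T1 array, at 672, was well above the highest 67NR array, at 272, and the highest normal array, at 193. The log2 difference was 2.41 (SE 0.19, limma adjusted p = 7.82e-05) in 4T1 against normal, 2.18 (SE 0.19, adjusted p = 0.000196) in 4T1 against 67NR and 0.23 (SE 0.18, adjusted p = 0.862) in 67NR against normal lung. Its ligands Cxcl1, Cxcl2 and Cxcl5 had 4T1-against-normal differences of 0.01, -0.13 and 0.21 on their brightest probe sets.

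Ccr1, the receptor of Ccl6 and Ccl9 on neutrophils and monocytes, had 595, 489, 798 and 589.6 in 4T1, 313, 308, 262, 320.2 and 327 in 67NR and 299, 231, 286, 276 and 296 in normal lungs. The 4T1 arrays overlapped with neither other group. The log2 difference of Ccr1 was 1.09 (SE 0.12, limma adjusted p = 0.0012) in 4T1 against normal and 0.96 (SE 0.12, adjusted p = 0.00434) in 4T1 against 67NR lung, and 0.13 (SE 0.11, adjusted p = 0.873) in 67NR against normal lung. Its second probe set gave 1.26 (adjusted p = 0.0379) and 1.17 (adjusted p = 0.0547) in the same order. With only the 4T1 and 67NR arrays in the fit, the adjusted p of the first probe set in that comparison was 0.0503.

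**Figure D4:**
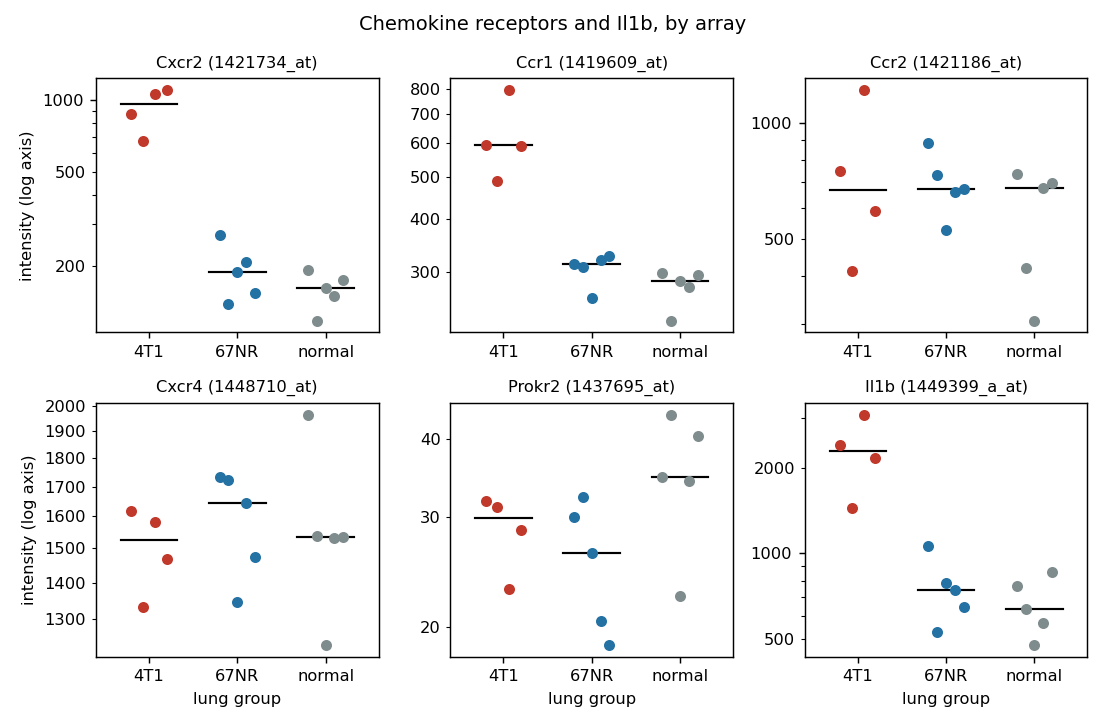
Intensity (y axis, log scale, a separate range per panel) of 5 receptors of these ligands and of Il1b on each array, with a line at the group median. Cxcr2, Ccr1 and Il1b are higher on all 4 4T1 arrays than on every 67NR and normal array, while Ccr2, Cxcr4 and Prokr2 overlap between groups.

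Ccr2, the Ccl2 receptor of inflammatory monocytes, ranged from 413 to 1217 in 4T1, 526 to 887 in 67NR and 306 to 735 in normal lungs. Its difference was 0.35 (95% interval -0.32 to 1.01, limma adjusted p = 0.973) in 4T1 against normal and 0.00 (-0.67 to 0.67) in 4T1 against 67NR lung. Cxcr4, the Cxcl12 receptor, ranged from 1334 to 1619 in 4T1, 1346 to 1733 in 67NR and 1233 to 1966 in normal lungs, a difference of -0.04 (-0.30 to 0.21, adjusted p = 1) in 4T1 against normal lung. Prokr2, a Prok2 receptor, was dim, with 23.0 to 31.8 in 4T1, 18.7 to 32.4 in 67NR and 22.4 to 43.9 in normal lungs, and a difference of -0.18 (-0.47 to 0.10, adjusted p = 0.945) in 4T1 against normal lung. None of these receptors separated the groups.

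Among 17 measured genes that induce neutrophil chemokines or carry their signal, 1 rose in 4T1 against normal lung and the same gene in 4T1 against 67NR lung, with 0 called in 67NR against normal lung (limma; 0 at an unadjusted p under 0.05). The gene was Il1b, the cytokine interleukin 1 beta, which activates NF-kB in lung epithelium and endothelium. Il1b had 2407, 1444, 3085 and 2169.8 in 4T1, 1063, 529.99, 787, 740.4 and 645 in 67NR and 768, 637, 474, 569.6 and 862 in normal lungs. The 4T1 arrays lay above all others. The log2 difference was 1.74 (SE 0.24, limma adjusted p = 0.00671) in 4T1 against normal and 1.56 (SE 0.24, adjusted p = 0.0175) in 4T1 against 67NR lung. The Il1b call in 4T1 against 67NR lung was lost, at 0.0765, 0.0526 and 0.0665, without 4T1 replicate 1, 3 or 4, and also with only the groups compared in the fit (0.0876) and with the replicate number as a block (0.0545).

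Csf3, which encodes G-CSF, was dim on all arrays, with 18.3 to 21.0 in 4T1, 17.0 to 22.8 in 67NR and 17.1 to 21.8 in normal lungs. A list of 12 genes was taken as targets of NF-kB: Nfkbia, Nfkbie, Tnfaip3, Tnfaip2, Icam1, Vcam1, Sele, Ptgs2, Birc3, Zc3h12a, Cebpd and Socs3. Of these, 0 were called by limma in any comparison. At an unadjusted limma p under 0.05 there were 3, 1 and 5 in 4T1 against normal, 67NR against normal and 4T1 against 67NR lung. Their median log2 differences were -0.00648, -0.0128 and -0.00337, beside -0.00228, -0.00109 and -0.00159 over all genes. Whether the list reads out NF-kB activity was not tested.

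Other chemokines and receptors were listed as well. Of 27 further chemokine ligands measured, 0 were called by limma in each comparison, with 1, 1 and 4 at an unadjusted p under 0.05 in 4T1 against normal, 67NR against normal and 4T1 against 67NR lung. Their median log2 differences were -0.0561, 0.0625 and -0.0768. Of 13 further chemokine receptors, 0 were called by limma in each, with 2, 3 and 5 at an unadjusted p under 0.05, and the shares of all genes at that threshold were 5.63%, 6.92% and 9.07%. Neither list was tested against the 9 ligands.

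Markers of cells that make these ligands were counted in the same way. In each of the 3 comparisons 0 of 11 alveolar macrophage, 0 of 11 alveolar type 2 and 0 of 9 airway secretory markers were called by limma. At an unadjusted p under 0.05, in 4T1 against normal, 67NR against normal and 4T1 against 67NR lung, the counts were 1, 1 and 1 for macrophage, 2, 0 and 1 for type 2 and 0, 0 and 0 for secretory markers. Likewise 0 of 11 fibroblast and stromal and 0 of 11 endothelial markers, the cells that make most Cxcl12, were called by limma, with 0, 1 and 1 of the fibroblast list and 3, 1 and 3 of the endothelial list at an unadjusted p under 0.05 in that order. Of 10 tumour epithelial and 8 platelet markers 0 were called by limma, with 1, 0 and 1 and with 0, 1 and 1 at an unadjusted p under 0.05. Summed intensity of the airway secretory markers was 47392.3 to 52205.6 in 4T1, 39864.1 to 50449.4 in 67NR and 46353.2 to 53954.7 in normal lungs. The sum rests on the brightest of them. Their mean log2 level, relative to the mean of all arrays, was -0.0585 to 0.432 in 4T1, -0.559 to 0.289 in 67NR and -0.651 to 0.502 in normal lungs. Bpifa1 alone ranged from 3999 to 5685, 943 to 4935 and 748 to 4617 in these groups.

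For each gene the 3 others whose level was most like that of its brightest probe set were found by Pearson correlation over the 14 arrays among 20975 probe sets of the upper 60% of levels, and they share arrays and groups with it. For Prok2 these were Asprv1 (0.905), Fmo2 (0.882) and Cd300lf (0.873), and after removal of group means the correlations were 0.689, 0.729 and 0.591. For Ccl6 they were Ptger4 (0.877), Pik3r5 (0.865) and Mxd1 (0.858), with 0.692, 0.675 and 0.72 within groups. For both, the correlations were lower within groups than over all 14 arrays. The genes were picked on the correlation over all 14 arrays, so a drop can come from that choice. Its source was not tested.

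The likeness held almost unchanged within groups for Ccl9, with Cfp (0.941, 0.923 within groups), Vav1 (0.897, 0.889) and Myd88 (0.895, 0.891), and for Cxcl15, with 1700028J19Rik (0.962, 0.967), Scgb1a1 (0.944, 0.967) and Ptms (0.944, 0.97). Cxcl15 and Scgb1a1 were each lowest in their group on 4T1 replicate 3, 67NR replicate 4 and normal replicate 5. There Cxcl15 had 7811, 7999 and 8061, and Scgb1a1 had 11381.5, 11531 and 12031. The part of an array-wide shift of the brightest values in this likeness was not tested. The nearest genes were Oga, Plvap and Cyhr1 for Cxcl1, Tcf12, Tmed5 and Srxn1 for Cxcl2, and Adam17, Man1a and Xpr1 for Cxcl5. They were Ctnnb1, Ptprf and Gnb4 for Cxcl12, and Ptbp1, Hp1bp3 and Pdk2 for Ccl2. The top correlation of each of these 5 lay between 0.839 and 0.914. The largest of 20975 correlations over 14 arrays can be high without any relation, and none of those given here was tested.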

How the data were processed

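Values were the deposited series table of linear Affymetrix probe set intensities, 1 per probe set and array. How the authors summarised and normalised these intensities, and the genome build, are not given in the sources used here. Biotin-labelled cRNA was made from 3 µg of RNA, per the labels' protocols. Probe sets were named by the platform annotation of GEO; 0 symbols needed updating. Intensities were turned into log2(intensity + 16), without further normalisation, and fitted with limma 3.58.1 in R 4.3.3 (lmFit with 1 mean per group over all 14 arrays, default eBayes, 11 residual degrees of freedom, no level filter, two-sided). Gene lists used the brightest probe set per gene with adjusted p-values over all 34958 probe sets. The number of arrays limits the precision. The script was tested on simulated data. Named were all 9 ligands, their receptors that were called plus Cxcr2, Ccr2, Cxcr4 and Prokr2, up to 4 called genes per other list (neutrophil markers are given as counts), and 3 genes by correlation per ligand; Csf3, the clock genes and genes at an unadjusted p were added after their values were seen. Ligands, lists and tests were chosen with earlier results of these data known. Same-numbered arrays were checked for pairing: of 13 pairs, 0 had correlated deviations over 0.1 (range -0.126 to 0.084). Taken over all probe sets, this check cannot exclude a pairing that moves few genes. The labels state no pairing, and the main fit took the arrays as unpaired. Promoters came from RefSeq's GRCm38.p6.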

Additional observations from a re-analysis of the deposited data

Results flagged for a closer look

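Of 54 groups of ligand values (18 probe sets in 3 groups), 5 held an array far from the others of its group; chance gives about 1 in 20. On Prok2 1419681_a_at, 4T1 replicate 2 was low at 82.2, with the nearest 4T1 array at 157, and normal replicate 3 was high at 75.3, with the nearest normal array at 8.82. On Prok2 1451952_at, normal replicate 4 was low at 2.71, with the nearest at 16.2. On Ccl9 1448898_at, 4T1 replicate 3 was high at 297, with the nearest 4T1 array at 213. On Ccl6 1420249_s_at, normal replicate 1 was low at 1676, with the nearest normal array at 1958.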

How the results depend on the processing

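Alternatives covered normalisation, offsets of 1 and 64, level filters, probe sets per gene, variance models, array weights, fits of only the groups compared, the replicate number as a block, and each of 14 arrays left out in turn; 2 were added after seeing the data (without 67NR replicates 1 and 3, and 1 probe set per gene within the upper 60% of levels), as was their use on receptors and Il1b. The 18 ligand probe sets gave 0 calls in 67NR against normal lung under every alternative run. In 4T1 against 67NR lung 1 was called within the upper 40% of levels, Ccl6 1420249_s_at (adjusted p = 0.0451), and leaving out 1 array gave 0 to 1 calls, the 1 without 67NR replicate 5. In 4T1 against normal lung leaving out 1 array gave 0 to 1, the 1 being Prok2 without normal replicate 3. The Prok2 difference there ranged from 0.93 (mean of its 3 probe sets) to 3.42 (offset 1), with adjusted p-values of 0.0214 to 0.387. Of 54 ligand differences 15 changed sign under some alternative, and 0 of those had a 95% interval that left out 0.

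Over all probe sets, 4T1 against normal lung gave 65 calls, 37 with only the groups compared and 42 to 84 with 1 array left out; the 42 came without 4T1 replicate 1 or normal replicate 2. 4T1 against 67NR lung gave 76, 33 with only the groups compared, 34 under the replicate block and 37 to 76 with 1 array left out (37, 44, 46 and 47 without 4T1 replicate 1 or 4 or 67NR replicate 2 or 3). 67NR against normal lung gave 1, which became 0 with an offset of 64, either level filter, 1 probe set per gene within the upper 60%, only the groups compared or the replicate block, 5 without 67NR replicates 1 and 3, and 0 to 3 with 1 array left out, 3 of them without 67NR replicate 1. In 4T1 against 67NR lung 1 receptor rose, not 2, with only the groups compared; the Il1b call was lost there (adjusted p = 0.0876) and under the replicate block (0.0545). The causes of these shifts were not tested. Without detection calls, differences of dim probe sets (Cxcl2, Cxcl5, Ccl2 and Prok2 other than 1419681_a_at) rest on signal that cannot be told from background. On Prok2 1419681_a_at this holds for most 67NR and normal values, while the 4T1 arrays had 82.2 to 174.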
